A study of Drosophila melanogaster with 2 samples.

Results

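The genes described here encode the alpha-amylases and the Mal-A maltases of Drosophila melanogaster, the secreted enzymes that take starch and glycogen apart into glucose. Members were every gene of these families whose symbol was on a list of 10 (Amy-p, Amy-d, Amyrel, Mal-A1, Mal-A2, Mal-A3, Mal-A4, Mal-A6, Mal-A7 and Mal-A8) and that had a probe annotated to that symbol alone. The families were chosen by their log2 ratios in the comparison reported below, in which the Amy genes stood out, so the members' ratios are a description and carry no p-value. Of the 10 listed genes 8 were measured, each by 1 probe with a value on both arrays, among 8224 genes measured in all. Mal-A6 and Mal-A7 had no probe annotated to them alone and were not analysed here.

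Alpha-amylases cut the internal bonds of starch and glycogen and leave maltose and short glucose chains, and maltases (alpha-glucosidases) release glucose from those products. In the fly both kinds of enzyme are known above all from the midgut, where they are secreted into the lumen. Amy-p and Amy-d are near-identical copies of the amylase gene, Amyrel is a diverged amylase relative, and the Mal-A genes form a tandem cluster. serpent (srp) encodes a GATA factor that embryos need to form hemocytes (the blood cells), the fat body and the endodermal midgut, and another GATA factor gene, GATAe, acts after srp in the endoderm.

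Total RNA of whole embryos was compared on 2 two-colour arrays, A and B, with the dyes exchanged between them. The hemocyte plus embryos were wild type and the hemocyte minus embryos were serpent mutants, and the channel labels of array A call both unwounded while those of array B leave that word out. The serpent allele, the age and number of the embryos, and whether the arrays held separate RNA extracts are not stated in the labels used here, so the spread between the arrays may be technical. In whole embryos fewer cells of a type and less RNA per cell cannot be told apart.

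Each deposited value has the form of a dye ratio times -1, and which dye was the numerator is not stated. The log2 of its size was turned by the dyes in the labels and centred on each array's median. A dye effect particular to a gene would then cancel in the mean of the arrays. It would remain in the gap between the arrays and in the values of each array alone, and was not tested. Cy3 was taken as the numerator because blood cell genes then lie on the positive side: 10 of 13 plasmatocyte genes and 3 of 5 crystal cell genes passed the limma threshold there and 0 on the other side. Positive values are called the plus side (higher in hemocyte plus embryos) and negative values the minus side. This direction is likely, not certain, and all signs turn together if Cy5 was the numerator. No channel intensities were used, so the level of each transcript in the embryos, and whether a probe was above background, are unknown.

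Amy-p had the highest mean ratio of the family, and the highest on array A. Its deposited values were -0.286 on array A and -3.574 on array B, which gave turned log2 ratios of 1.79 and 1.81. The mean of 1.80 ± 0.01 (SD, n = 2 arrays) is a 3.48-fold difference and the 32nd highest of the 8224 genes. The arrays lay closer together for Amy-p than for most genes, with a gap of 0.02 against a median gap of 0.17 over all genes.

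Amy-d, measured by another clone, had deposited values of -0.438 (array A) and -3.744 (array B). These gave turned log2 ratios of 1.18 and 1.87, with a mean of 1.52 ± 0.49 (2.88-fold). The array gap of 0.70 for Amy-d lay at the 96.3rd percentile of all genes. On array A the Amy-d clone lay 0.61 below the Amy-p clone, and on array B it lay 0.07 above it, so the order of the copies turned between the arrays. A cDNA probe of one copy can bind the transcripts of the other, and the pair is therefore read as 1 signal. Averaged, the clones gave 1.48 on array A and 1.84 on array B, a mean of 1.66 ± 0.25 (3.16-fold). Left out of this average was a clone annotated to both Amy-d and CG1299, with a lower mean of 0.64 in each of its versions. How much of that clone's signal came from Amy transcripts was not tested.

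Amyrel lay on the other side of 0 from the Amy copies. Its log2 ratios were -0.29 on array A and -0.45 on array B, from deposited values of -1.213 and -0.75. The mean was -0.37 ± 0.11 (1.29-fold), at the 11.4th percentile of all genes. This gene had the lowest ratio of the measured members on each array. It lay 2.08 below Amy-p on array A and 2.25 below it on array B.

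Among the maltases Mal-A1 had the highest ratio. Its values of 0.69 (array A) and 0.64 (array B) had a mean of 0.67 ± 0.04 (1.59-fold), the 244th highest of all genes. Mal-A3 followed with 0.41 and 0.30, a mean of 0.36 ± 0.07 (1.28-fold), at the 91.4th percentile. Both maltase genes were positive on both arrays, and Mal-A1 was above Mal-A3 by 0.29 on array A and 0.33 on array B. Amy-p exceeded Mal-A1 by 1.10 on array A and by 1.17 on array B.

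The other 3 measured Mal-A genes lay near 0. Mal-A4 lay at 0.03 (array A) and 0.16 (array B), with a mean of 0.09 ± 0.09. Mal-A2 had 0.10 and -0.09, with a mean of 0.01 ± 0.13, at the middle of all genes. Mal-A8 had -0.20 on array A and 0.52 on array B, with a mean of 0.16 ± 0.51. The arrays thus disagreed in sign for Mal-A2 and Mal-A8, and the gap of 0.72 for Mal-A8 was the widest among the members.

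**Figure D1:**
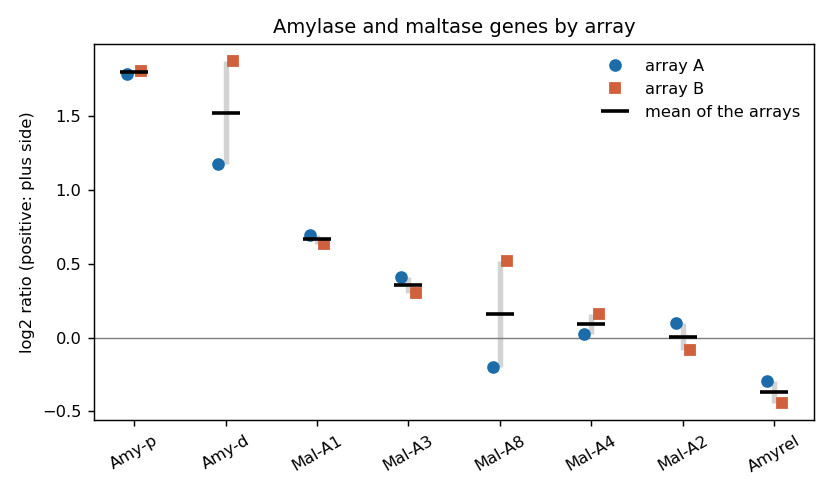
Log2 ratio of each measured amylase and maltase gene (y axis, positive on the plus side) on array A (circles) and array B (squares), with the mean of the arrays as a black line and the gap between them as a grey bar. Amy-p and Amy-d lie between 1.18 and 1.87, Amyrel lies below 0 on both arrays, and Amy-d and Mal-A8 have the widest gaps.

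Ordered by mean log2 ratio, the members ran Amy-p, Amy-d, Mal-A1, Mal-A3, Mal-A8, Mal-A4, Mal-A2 and Amyrel. Of the 28 pairs of members, 23 differed in the same direction on both arrays and 5 did not. Many of these pairs set an Amy copy, whose ratios chose the families, against another member. The same share over all genes was not computed, so nothing is read from this count. Of the 7 pairs next to each other in this order, 3 kept their direction on both arrays, namely Amy-d above Mal-A1, Mal-A1 above Mal-A3, and Mal-A2 above Amyrel. The direction turned between the arrays within the other 4 neighbouring pairs, Amy-p with Amy-d, Mal-A3 with Mal-A8, Mal-A8 with Mal-A4, and Mal-A4 with Mal-A2, so these pairs did not differ beyond the spread of the arrays.

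Past the limma threshold (Benjamini-Hochberg adjusted p under 0.05 over all genes) were 3 of the 8 measured members, Amy-p, Amy-d and Mal-A1, all on the plus side, against 13.4% of all genes on either side, 5.27% on the plus side and 8.18% on the minus side. With the Amy copies read as 1 signal these are 2 signals, and against a 1.2-fold difference Mal-A1 was not called. At least 2-fold on each array were Amy-p and Amy-d, against 2.99% of all genes. Nothing is read from these counts, because the same ratios chose the families. The median log2 ratio of the 8 members was 0.26 (0.25 for A alone, 0.41 for B alone) beside 0.00 over all genes. With the Amy copies averaged it was 0.16 over 7 signals, and without them the other 6 members had a median of 0.13.

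**Figure D2:**
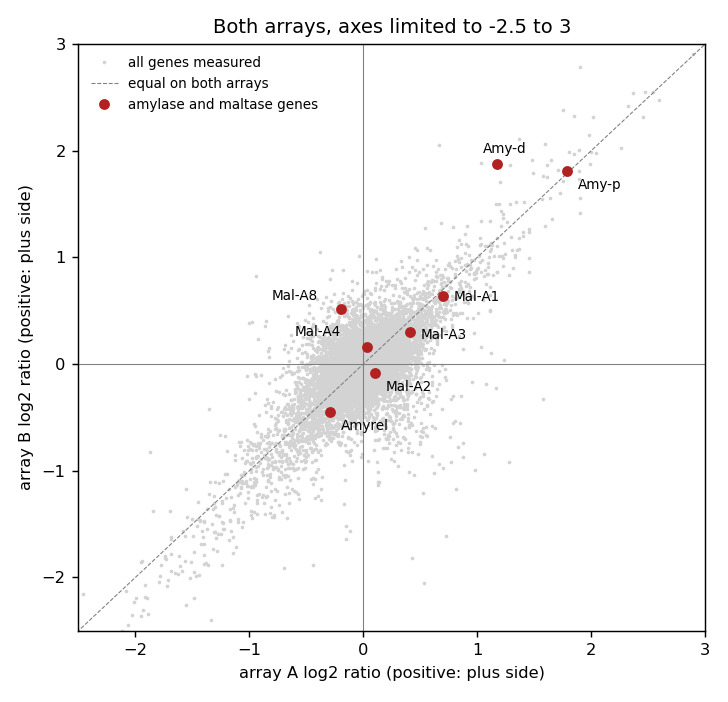
Log2 ratio on array A (x axis) against array B (y axis) for all 8224 genes (grey) and the 8 measured amylase and maltase genes (red), with a dashed line where the arrays are equal. Both axes run from -2.5 to 3, and 26 genes lie outside them. Amy-p sits on the line of equality at 1.79 and 1.81, Amy-d above it, and Mal-A2, Mal-A4 and Mal-A8 in the cloud around 0.

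Along the chromosome the members lie in 3 places on arm 2R, by the gene order of the Release 6 assembly: the Mal-A cluster, Amyrel alone, and Amy-p with Amy-d. Mal-A1 to Mal-A8 follow each other with no other annotated gene between them. Mal-A5, the cluster gene that is not on the list, lay at 0.40 (array A) and 0.10 (array B), a mean of 0.25 ± 0.21 (limma adjusted p = 0.261). Along the cluster the measured genes thus gave means of 0.67 (Mal-A1), 0.01 (Mal-A2), 0.36 (Mal-A3), 0.09 (Mal-A4), 0.25 (Mal-A5) and 0.16 (Mal-A8), with the highest at the end of Mal-A1. The RefSeq table lists an older gene name, CG8689, as a synonym of both Mal-A5 and Mal-A6, and whether the clone annotated to Mal-A5 also binds Mal-A6 transcripts was not tested.

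The 3 nearest measured genes on the Mal-A1 side were all cytochrome P450 genes. Cyp4e1, next to Mal-A1, lay at 0.37 ± 0.06 (limma adjusted p = 0.085). Cyp4e2, the third gene away, passed on the plus side at 0.97 ± 0.00 (1.96-fold, adjusted p = 0.00333). Cyp4ad1 lay at 0.25 ± 0.42 (adjusted p = 0.384). On the Mal-A8 side mtt lay at 0.09 ± 0.17, CG8736 at -0.15 ± 0.09, and the P450 gene Cyp6a13 passed on the minus side at -0.96 ± 0.22 (adjusted p = 0.00559). The measured genes around the cluster therefore went both ways, with 1 of 6 past the threshold on each side.

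Amyrel lay among genes with mostly negative ratios, while of all 8224 genes 4096 had means below 0 and 8.18% passed on the minus side. Of its 6 nearest measured neighbours 2 passed on the minus side: the receptor tyrosine kinase gene Alk at -0.53 ± 0.05 (limma adjusted p = 0.0282) and the transporter gene Picot at -0.64 ± 0.26 (adjusted p = 0.0289). Idgf6, which encodes an imaginal disc growth factor of the chitinase-like family, lay at -0.45 ± 0.21 (adjusted p = 0.0701), CG5089 at -0.28 ± 0.30, CG5065 at -0.10 ± 0.01 and Pgant9 at 0.05 ± 0.12.

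Between Amy-p and Amy-d the annotation places the serpin gene Spn53F and an antisense RNA gene, neither of which had a value here. The neighbours next to the pair were CG15611 on the Amy-p side, at -0.43 ± 0.35 (limma adjusted p = 0.124), and CG15605 on the Amy-d side, at 0.22 ± 0.33 (adjusted p = 0.381). Neither showed a ratio near that of the Amy copies. Farther out, CG46491 passed on the plus side at 0.48 ± 0.01 (adjusted p = 0.0385; 0.0505 with the probe of largest change). CG6984 (-0.31 ± 0.18) and CG11400 (-0.12 ± 0.02) did not pass. The growth-blocking peptide gene Gbp2, the eighth gene from Amy-d, lay at 2.53 ± 0.09 (5.78-fold, adjusted p = 0.000252), above both amylase copies.

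**Figure D3:**
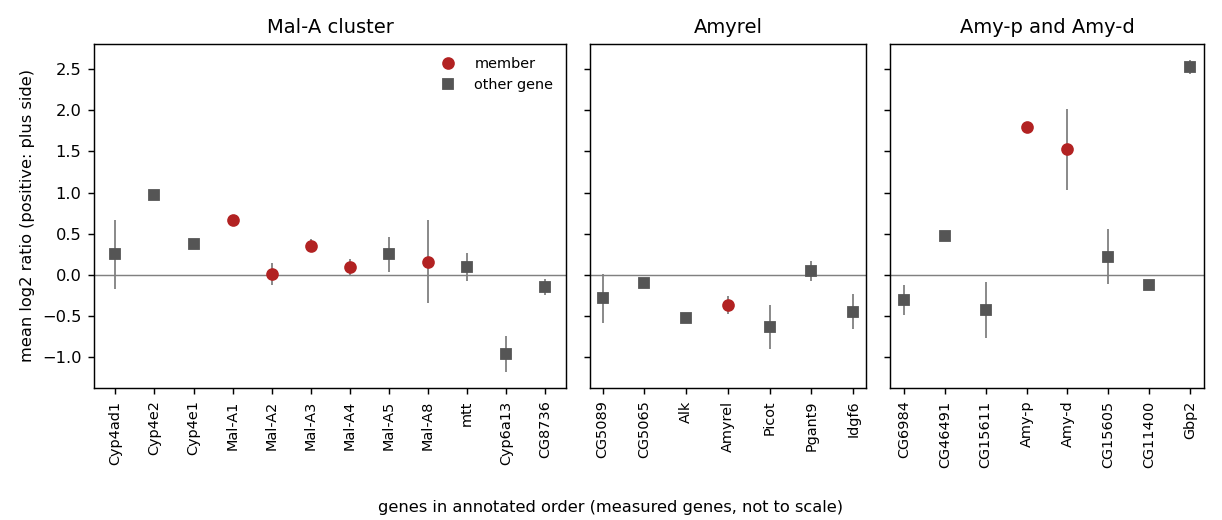
Mean log2 ratio (y axis) with the SD of the 2 arrays as bars, for the members (red circles) and the nearest measured genes (grey squares), in annotated order along arm 2R and not to scale. The Amy copies stand above the genes next to them, Amyrel lies at -0.37 among mostly negative neighbours, and the Mal-A cluster spans 0.01 to 0.67.

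Other enzymes that cleave sugar chains or disaccharides were listed by name, and 9 were measured. Of these 1 passed on the plus side and 0 on the minus side, against 5.27% and 8.18% of all genes. The median was 0.02, and nothing is read from the count. The gene that passed was Treh, the trehalase gene, whose product splits the blood sugar trehalose into glucose. Treh lay at 0.94 (array A) and 0.89 (array B), a mean of 0.91 ± 0.03 (1.89-fold, limma adjusted p = 0.00417). The maltase gene Mal-B2, of a separate cluster on arm 2L, lay at -0.34 on array A and 0.00 on array B, a mean of -0.17 ± 0.24 (adjusted p = 0.445).

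Glucosidases I and II trim the sugar chains of new glycoproteins in the endoplasmic reticulum. GCS1 (glucosidase I) lay at -0.12 ± 0.01, and the glucosidase II subunit genes GCS2alpha and GCS2beta at 0.02 ± 0.17 and 0.25 ± 0.02. None of the 3 passed. The remaining genes of this list were Mal-A5, given above, CG5731 (0.22 ± 0.18), CG7997 (-0.03 ± 0.08) and CG33080 (-0.43 ± 0.08, limma adjusted p = 0.0567). CG33080 passed on the minus side without centring (adjusted p = 0.0484) and with scaled arrays (adjusted p = 0.0499).

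Of 19 measured genes of glycogen, trehalose and glucose use, 3 passed on the plus side and 1 on the minus side, with a median of 0.13. Over all genes 5.27% passed on the plus side and 8.18% on the minus side. The trehalose transporter gene Tret1-1 lay at 1.21 on array A and 1.29 on array B, a mean of 1.25 ± 0.06 (2.38-fold, limma adjusted p = 0.0016). Its relative Tret1-2 lay at 1.35 ± 0.15 (2.54-fold, adjusted p = 0.00158), and binding of one transcript to the other's probe was not tested. Hex-A, a hexokinase gene, passed at 0.52 ± 0.16 (adjusted p = 0.0378). Gyg, the glycogenin gene that primes glycogen synthesis, passed on the minus side at -0.58 ± 0.13 (adjusted p = 0.0256).

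Beside Gyg, the other glycogen genes of that list did not pass. CG9485 lay at -0.46 ± 0.21 (limma adjusted p = 0.0634). Glyp (glycogen phosphorylase) lay at 0.19 ± 0.33, Glys (glycogen synthase) at 0.07 ± 0.23 and AGBE (the branching enzyme) at 0.13 ± 0.03. Tps1, which makes trehalose, lay at 0.18 ± 0.25.

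Of 11 measured regulators of the response to sugar and of sugar mobilisation, 1 passed on the plus side and 2 on the minus side. The median was 0.00, and the shares over all genes were 5.27% and 8.18%. AkhR, the receptor of adipokinetic hormone, which mobilises fat body stores, passed on the plus side at 0.66 ± 0.26 (1.58-fold, limma adjusted p = 0.025). The Activin-like ligand gene daw (-0.50 ± 0.12, adjusted p = 0.0385) and the transcription factor gene cbt (-0.69 ± 0.11, adjusted p = 0.0126) passed on the minus side. Mondo, which encodes the fly relative of the carbohydrate response factor ChREBP, lay at 0.43 ± 0.10 (adjusted p = 0.0576). The gene for sugarbabe (sug), a zinc finger factor known to respond to dietary sugar, lay at -0.44 ± 0.18 (adjusted p = 0.0645).

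Other digestive enzymes had ratios on both sides of 0. Of 40 listed protease, lysozyme and lipase genes 24 were measured, with a median of -0.09. On the plus side 1 passed and on the minus side 3, against 5.27% and 8.18% of all genes. Nothing is read from counts this small. The trypsin gene lambdaTry passed on the plus side at 0.59 ± 0.10 (limma adjusted p = 0.0224). On the minus side were the lysozyme gene LysX (-1.29 ± 0.27, adjusted p = 0.0026), the trypsin gene alphaTry (-0.79 ± 0.25, adjusted p = 0.0127) and the Jonah protease gene Jon65Aiv (-0.61 ± 0.09, adjusted p = 0.0188). Close relatives among the trypsin, Jonah and lysozyme genes may share a probe's signal.

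Of 13 other midgut genes listed 8 were measured. All 8 had negative means, with a median of -0.36, though GATAe and GATAd differed in sign between the arrays. On the plus side 0 passed and on the minus side 3, against 5.27% and 8.18% of all genes. The 3 were the metallothionein gene MtnA (-2.57 ± 0.04), Peritrophin-A (-1.08 ± 0.10, limma adjusted p = 0.0026) and the proton pump subunit gene Vha100-4 (-0.56 ± 0.19, adjusted p = 0.0337). The RNA was of whole embryos, so the tissue behind these ratios is unknown. GATAe lay at -0.09 on array A and 0.02 on array B, a mean of -0.03 ± 0.07 (adjusted p = 0.876). Of 5 measured GATA factor genes none passed, and their means ran from -0.27 (grn) to 0.27 (pnr), with srp at 0.26 ± 0.15 (adjusted p = 0.221) and a median of -0.03. The part of midgut amount or makeup in the members' ratios was not tested.

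Most genes listed for blood cells and the fat body, which like the midgut need srp, lay on the same side as the Amy copies and Mal-A1. In addition to the blood cell counts given above, 7 of 10 measured fat body genes passed on the plus side and 0 on the minus side. Over all genes these shares were 5.27% and 8.18%. The medians were 0.81 for plasmatocyte, 0.71 for crystal cell and 0.76 for fat body genes, with Col4a1 in both the plasmatocyte and the fat body list. The means of eater (-0.03), Fbp2 (-0.02) and Lsp2 (-0.15) were below 0. The phagocytosis receptor gene NimC1, among the 10 plasmatocyte genes that passed, lay at 1.01 ± 0.05. Without probes marked ReAmp, rdnd or dupe in their names NimC1 lay at 0.39 (limma adjusted p = 0.0829). The highest of each were Ppn at 2.39, PPO1 at 4.87 and the lipoprotein gene apolpp at 1.33. The part of these tissues in the members' ratios was not tested.

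**Figure D4:**
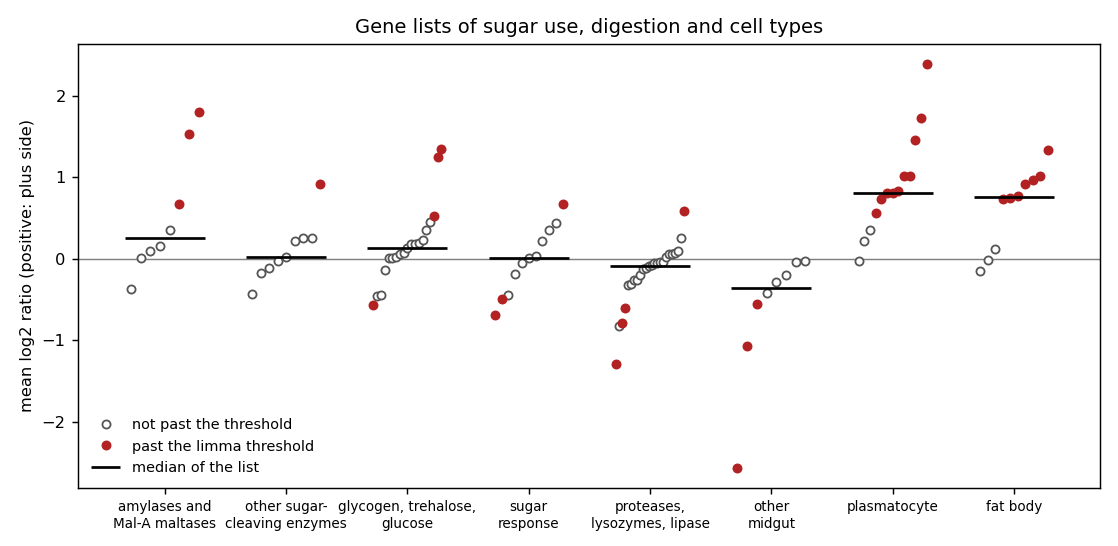
Mean log2 ratio (y axis) of each measured gene of 8 lists, filled where past the limma threshold, with each list's median as a black line. The amylase and maltase median is 0.26 (0.16 with the Amy copies as 1 signal, 0.13 without them, 0.41 on array B alone). The other midgut genes have a median of -0.36 and the plasmatocyte genes 0.81. Nothing is read from this order, because the same ratios chose the families and blood cell genes set the direction.

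The 5 genes nearest to Amy-p in their ratios on the 2 arrays, by Euclidean distance and without the members, were CG14572 (distance 0.08), the cytochrome P450 gene Cyp6a8 (0.10), the glutathione transferase gene GstE3 (0.10), the ornithine aminotransferase gene Oat (0.13) and the phospholipase gene sPLA2 (0.17). With 2 arrays this likeness rests on 2 values a gene. Amy-d lay 0.62 from Amy-p, and 36 other genes lay nearer.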

How the data were processed

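Each probe has at most 1 deposited value per array. All lie below 0 and look like a linear dye ratio times -1 (medians -0.989 for A and -1.021 for B). How the authors scanned, background-corrected and normalized these ratios is not stated in the sources used here. Ratio sizes were put on a log2 scale, array A was turned against array B by the dyes in the labels (Pearson r = -0.689 across probes before turning), and the median of each array was subtracted.

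The table held 12144 probes, of which 11964 had both values and 9793 of these had 1 gene symbol. Symbols came from the platform annotation, updated by gene identifier through the RefSeq table of the Release 6 assembly. Probes of a gene were averaged, giving 8224 genes. Those with several symbols were left out.

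limma 3.58.1 in R 4.3.3 (lmFit, eBayes, intercept only) tested all genes against 0, and calls are at a Benjamini-Hochberg adjusted p under 0.05. There was 1 residual degree of freedom, to which moderation added 5.01 prior degrees of freedom (prior SD 0.168). The number of arrays limits the precision.

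Members and gene lists were chosen with earlier results of these data known. Named were all measured members and genes of the list of other sugar-cleaving enzymes, srp, GATAe and the 5 genes most like Amy-p. The 3 nearest measured genes on each side of the members were named as well. So were list genes past the threshold (up to 4 a side) or at a list's ends. In the blood cell and fat body lists only some of these were named. Further genes named within a list were added after their values were seen. Alternatives were other centring, scaling, probe choice and call rules, and each array alone. No sequences are shown.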

Additional observations from a re-analysis of the deposited data

How the results depend on the processing

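Amy-p, Amy-d and Mal-A1 passed the limma threshold without centring, with scaled arrays and with the probe of largest change. They also passed without probes marked ReAmp, rdnd or dupe in their names, and with each probe on its own. No other member passed in these settings. Each measured member had 1 probe, without such a mark, so the settings of probe choice left its ratio as it was. Only its call could change there, through the other genes. Nothing is read from these calls, because the same ratios chose the families. Against a 1.2-fold difference 535 genes passed, and at least 2-fold on each array were 246, in place of 1106, and in both Mal-A1 was no longer among the calls. Over the alternatives that use both arrays no member's mean log2 ratio changed sign, but these settings hardly moved the ratios. Amy-p stayed between 1.80 and 1.82 and Mal-A2 between 0.01 and 0.03, so a change of sign could hardly arise. The members' median was 0.41 without replicate 1 (array B alone) and 0.25 without replicate 2 (array A alone), and on array A alone Mal-A8 was negative, as was Mal-A2 on array B alone. Averaging the Amy copies, an alternative chosen after seeing the data, gave 0.16. With 1 array there is no residual degree of freedom, so no test was run there. Of the other named genes, NimC1 no longer passed without the marked probes (log2 ratio 0.39 in place of 1.01, adjusted p = 0.0829), the call of CG46491 was lost with the probe of largest change, and CG33080 passed without centring and with scaled arrays. Signal over background is unknown, so a ratio near 0 of a dim probe cannot be told from one of a bright probe.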

Other observations

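A further clone, spotted in an original and a re-amplified version, is annotated to both Amy-d and the gene CG1299 and is not among the members. Its log2 ratios were 0.40 on array A and 0.87 on array B for the original spot, and 0.60 and 0.68 for the re-amplified one. The means of 0.64 for each version lay below both clones annotated to a single Amy copy.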
